A study of Homo sapiens with 4 samples.

Results

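The polyamine metabolism genes are 8 genes that make, break down or regulate the polyamines putrescine, spermidine and spermine. They were chosen by symbol, as ODC1, AMD1, SRM, SMS, SAT1, OAZ1, OAZ2 and AZIN1, and all 8 were found among the 16376 genes listed. Their RNA was measured in LASCPC-01, an established neuroendocrine prostate cancer (NEPC) cell line that was made by introducing NMYC together with active AKT1, so that control and treated cells both carry these alterations. The genotype label reads WT for all 4 samples. One group had received PBS (2 libraries) and the other fluoxetine, an antidepressant that blocks serotonin reuptake (2 libraries). Fluoxetine was given at 5 µM for 48 h by the methods text, whereas the sample labels place all 4 libraries at day 3, and PP stands in the titles of the fluoxetine-treated samples. Nothing in the labels says that the libraries of a group came from separate cultures, so the p-values measure the spread between these libraries, which may be technical.

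Polyamines are small positively charged molecules that bind nucleic acids and are needed for growth. Ornithine decarboxylase (ODC1) makes putrescine, and the aminopropyl groups that turn putrescine into spermidine and spermine come from S-adenosylmethionine after its decarboxylation by AMD1. Antizymes hold the pathway back by binding ODC1 and sending it to the proteasome, and antizyme inhibitors counter them. ODC1 is a textbook target of the MYC family, and prostate epithelium is known for its high polyamine output.

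None of the 8 genes passed the test between fluoxetine-treated and PBS-treated cells. Levels are in FPKM, that is, fragment numbers corrected for gene length and for sequencing depth, so that levels can be compared between genes. Over the 8 genes the log2 fold change (fluoxetine minus PBS, on log2(FPKM + 0.1)) ran from -0.19 for SAT1 to 0.14 for OAZ1, with a median of 0.014. The median was 0.040 over the 2310 genes with a mean of at least 30 FPKM, a level that all of the 8 except SAT1 reached. It was -0.021 over the 12663 genes with a mean of at least 0.1 FPKM that were tested. With limma and Benjamini-Hochberg adjustment over all these genes, 0 of the 8 had an adjusted p under 0.05, where 0.237% of all genes tested did. Also 0 of the 8 had an unadjusted p under 0.05, against 1078 of the 12663 (8.51%), and limma voom on read numbers recovered from the FPKM called 0 of the 8 as well. In all 8 genes the values of the 2 fluoxetine libraries overlapped those of the 2 PBS libraries. Another scaling of the libraries turned the sign of the log2 fold change for SRM, AMD1, ODC1 and AZIN1, all within 0.1 of 0. The groups did not overlap for 41.6% of all genes tested, and for 41.7% of the 2310 genes with a mean of at least 30 FPKM. With 2 libraries against 2, the smallest p that an exact two-sided permutation test can give for 1 gene is 0.333. With 1 library left out, so that 1 library stood against 2, between 2 and 6 of the 8 genes did not overlap, where 66.9% to 75.0% of all genes did not.

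**Figure D1:**
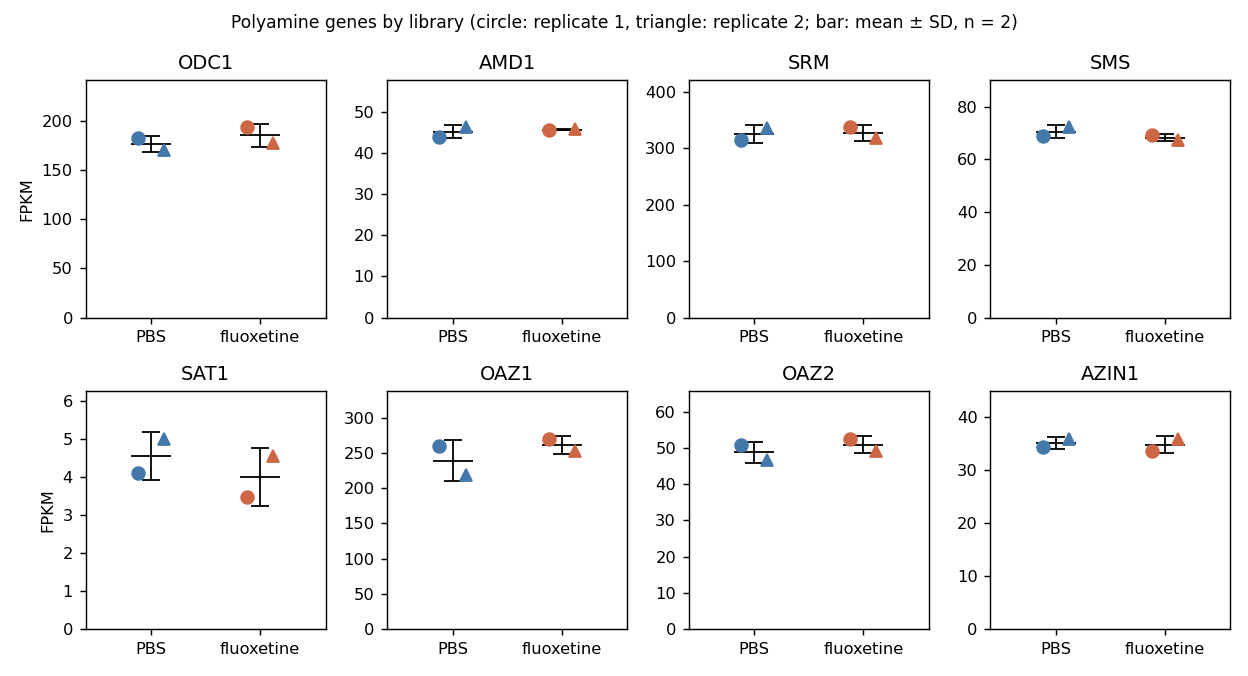
FPKM (vertical axes, each from 0) of the 8 polyamine genes in the 2 PBS libraries (blue) and the 2 fluoxetine libraries (orange), with circles for replicate 1, triangles for replicate 2 and black bars for the mean ± SD of each group. In every panel the 2 groups overlap, and the values run from 3.47 FPKM for SAT1 to 337 FPKM for SRM.

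The libraries were sequenced to a similar depth. The FPKM were whole multiples of the value of 1 read, which gave depths of 32873603 and 34756748 reads for PBS and 34806710 and 34831389 reads for fluoxetine. The defining markers of the line were mixed: NCAM1 and INSM1, 2 neuroendocrine genes, lay between 21.7 and 52.0 FPKM in every library and the epithelial keratins KRT8 and KRT18 above 350 FPKM, whereas SYP stayed under 0.7 FPKM and CHGA and NEUROD1 under 0.1 FPKM. Of 5 markers of other cell types, PTPRC, PECAM1 and COL1A2 were at or below 0.0624 FPKM, whereas COL1A1, a fibroblast collagen, lay between 1.83 and 2.75 FPKM and CD68, a macrophage marker, between 2.74 and 3.97 FPKM, and the groups overlapped for both. Of 5 proliferation genes (MKI67, PCNA, TOP2A, MCM2 and CCNB1), 0 passed the test with limma, and 1 (CCNB1) had an unadjusted p under 0.05.

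The 8 genes covered a wide range of levels and kept the same order in all 4 libraries. SRM had the highest mean over the 4 libraries, 326 FPKM, which was above 99.2% of the listed genes. OAZ1 followed at 250.1 FPKM, ODC1 at 181 FPKM, SMS at 69.3 FPKM, OAZ2 at 49.9 FPKM, AMD1 at 45.4 FPKM and AZIN1 at 34.9 FPKM. SAT1 stood far below the rest at 4.28 FPKM, above 50.5% of the listed genes, and AZIN1, its neighbour in the order, was 8.14-fold higher. The ranges over the 4 libraries were apart for every pair of neighbours, but only just for OAZ2, whose lowest value was 46.8 FPKM, and AMD1, whose highest was 46.2 FPKM.

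ODC1 and AMD1 supply the building blocks. ODC1 (chromosome 2 of GRCh38, 10439968 to 10448504, minus strand in GENCODE 29) had 182 and 171 FPKM under PBS, against 193 and 177 FPKM under fluoxetine. The highest value was a fluoxetine library and the lowest a PBS library, but PBS replicate 1 exceeded fluoxetine replicate 2, so the groups interleaved. The means were 176 ± 8.20 FPKM (SD, n = 2) and 185 ± 11.6 FPKM (SD, n = 2), which gave a log2 fold change of 0.070 (standard error 0.078) and a limma adjusted p of 0.796. Its 95% confidence interval of -0.10 to 0.24 corresponds to a change between -6.75% and 18.2%. Without fluoxetine replicate 1 the log2 fold change of ODC1 was 0.0062, and without fluoxetine replicate 2 it was 0.13. AMD1 (chromosome 6, 110874770 to 110895713, plus strand), which makes the aminopropyl donor, had 44.0 and 46.2 FPKM under PBS, against 45.6 and 45.8 FPKM under fluoxetine. Both fluoxetine values lay between the 2 PBS values, and the log2 fold change was 0.018 (interval -0.14 to 0.17, adjusted p = 0.961 from limma).

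Because ODC1 is known as a target of the MYC family, its E-boxes are shown here. The E-box CACGTG, which reads the same on both strands and is bound by MYC-MAX dimers, was searched in the RefSeq promoter windows of GRCh38.p14, which reach from 250 bases before to 50 bases after each start. Windows were found for 7 of the 8 genes. The motif was in 1 of the 2 windows of ODC1, in the 1 window of SRM and in none of the windows of SMS, AMD1, SAT1, OAZ1 and OAZ2. It was in 7.26% of all 35116 windows. In ODC1 it occurred at positions -29 and 6 from the start of that window, in sequence that lies inside the gene but in no exon of the GENCODE 29 transcripts. In SRM it occurred at position -199, outside every GENCODE 29 exon. The stretches are given 5′ to 3′ on the gene's strand, with the E-boxes in capitals.
ODC1, chr2:10447996-10448047, minus strand: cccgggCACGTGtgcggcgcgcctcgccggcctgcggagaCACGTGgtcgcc
SRM, chr1:11060206-11060223, minus strand: gggcccCACGTGgcccct
A match describes these letters only, and binding was not measured here.

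MYCN itself had 370 and 387 FPKM under PBS, against 323 and 364 FPKM under fluoxetine. Both fluoxetine values were below both PBS values. The means were 378 ± 11.9 FPKM (SD, n = 2) and 343 ± 28.6 FPKM (SD, n = 2), and the log2 fold change of -0.14 (standard error 0.085, interval -0.33 to 0.044) did not pass the test, with an adjusted p of 0.624 from limma. Without fluoxetine replicate 1 it was -0.056, and without fluoxetine replicate 2 it was -0.23. Reads of the introduced NMYC and of the cell's own gene cannot be told apart in these values. MYC was at most 0.263 FPKM and MYCL at most 3.89 FPKM, while MAX, the partner of all 3, had 25.9 FPKM in both groups. With MYCN and ODC1 both among the highest genes in all 4 libraries, the data hold no group in which MYCN was low.

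The 2 aminopropyltransferases stood at different levels, and neither passed the test. SRM (chromosome 1, 11054584 to 11060024, minus strand), which makes spermidine and carries the E-box shown above, had 314 and 336 FPKM under PBS, against 337 and 318 FPKM under fluoxetine. The group means of 325 ± 16.0 FPKM and 327 ± 13.7 FPKM (SD, n = 2 each) were closer together than the replicates of either group, with a log2 fold change of 0.011 (interval -0.16 to 0.19, adjusted p = 0.982 from limma). SMS (chromosome X, 21940573 to 21994835, plus strand), which adds the next aminopropyl group to make spermine, had 68.8 and 72.1 FPKM under PBS, against 69.1 and 67.2 FPKM under fluoxetine. Here 1 fluoxetine library lay below both PBS libraries and the other between them, and the log2 fold change was -0.048 (interval -0.20 to 0.11, adjusted p = 0.853 from limma). It was -0.014 without PBS replicate 2 and -0.082 without PBS replicate 1. Within a library, the level of SRM was 4.56 and 4.66 times that of SMS with PBS and 4.88 and 4.72 times with fluoxetine. In the deposited values this ratio, unlike either gene alone, did not overlap between the groups. The difference of 4.80 ± 0.109 from 4.61 ± 0.0714 (SD, n = 2 each) is given without a test. The nearest values, 4.66 and 4.72, lay close together beside a counting error of 1.34% for SMS alone. With the trend on gene length, given below, taken out of each library, the groups of this ratio overlapped. SMS alone then did not overlap, as was so for 39.5% of all genes tested. Its log2 deviations from the gene mean were 0.0023 and 0.074 with PBS, against -0.044 and -0.032 with fluoxetine. GENCODE 29 also holds processed copies of SRM and of AMD1, none of them among the listed genes, and reads that fit a copy as well cannot be told apart here.

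SAT1 (chromosome X, 23783173 to 23786226, plus strand) acetylates spermidine and spermine for breakdown or export. It had 4.11 and 5.01 FPKM under PBS, against 3.47 and 4.55 FPKM under fluoxetine, from 337 and 434 reads and from 301 and 395 reads. The lowest value was a fluoxetine library and the highest a PBS library, but the other 2 crossed over, and the means of 4.56 ± 0.634 FPKM and 4.01 ± 0.764 FPKM (SD, n = 2 each) differed by less than the replicates of either group. Its log2 fold change of -0.19 had the widest interval of the 8 genes, from -0.51 to 0.13, or from -29.5% to 9.42% (standard error 0.15, adjusted p = 0.702 from limma). Without fluoxetine replicate 1 the log2 fold change was 0.0031, and without fluoxetine replicate 2 it was -0.38. The oxidases that act beside SAT1 were low too. SMOX, which oxidizes spermine directly, had between 4.05 FPKM and 4.60 FPKM, and PAOX, which takes the acetylated products, between 0.612 and 0.676 FPKM. For these 2 genes as well the groups overlapped.

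The antizymes OAZ1 and OAZ2 are known for a ribosomal frameshift: polyamines make the ribosome slip past an early UGA stop, so that more polyamine gives more antizyme protein from the same RNA. The amount of antizyme RNA measured here therefore does not give the amount of protein. The site was read from GENCODE 29 transcripts (GRCh38), and the 30 bases around it are shown because the 2 genes share it almost letter for letter. The capitals mark the last codon of the first frame and the stop codon, written as DNA.
OAZ1, chr19:2271428-2271457, plus strand: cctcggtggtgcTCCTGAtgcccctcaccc
OAZ2, chr15:64691501-64691530, minus strand: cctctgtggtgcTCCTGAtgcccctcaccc
From OAZ1 to OAZ2 the windows differ by 1 base, G5T, counted from 1 at the 5′ end. In the annotation, 2 of the 3 protein-coding OAZ1 models and 3 of the 4 OAZ2 models leave out the T of the stop codon, which joins the 2 reading frames.

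OAZ1 (chromosome 19, 2269509 to 2273490, plus strand) had 259 and 218 FPKM under PBS, against 270.4 and 253 FPKM under fluoxetine. PBS replicate 2 stood below the other 3 libraries, which lay within 253 to 270.4 FPKM. The means were 239 ± 29.2 FPKM and 261 ± 12.6 FPKM (SD, n = 2 each), and the log2 fold change was 0.14 (standard error 0.092, interval -0.064 to 0.34, adjusted p = 0.658 from limma). Without PBS replicate 2 it was 0.011, and without PBS replicate 1 it was 0.26. OAZ2 (chromosome 15, 64687573 to 64703281, minus strand) had 51.0 and 46.8 FPKM under PBS, against 52.6 and 49.3 FPKM under fluoxetine. The groups interleaved as in OAZ1, with a log2 fold change of 0.060 (interval -0.11 to 0.23, adjusted p = 0.826 from limma). The level of OAZ1 was 5.09 and 4.66 times that of OAZ2 with PBS and 5.14 and 5.13 times with fluoxetine. These did not overlap, but the nearest values, 5.09 and 5.13, lay closer together than the counting error of 1.74% of OAZ2 alone. With the trend on gene length taken out of each library, the groups of this ratio overlapped. ODC1 stood at 0.702 and 0.782 of the level of OAZ1 with PBS and at 0.715 and 0.701 with fluoxetine, so the ratio of the enzyme to its main antizyme overlapped between the groups. So did the ratio of ODC1 to AMD1, between 3.69 and 4.24, and that of ODC1 to SAT1, between 34.1 and 55.7. Of the 6 ratios computed on the deposited values, 2 did not overlap, and both overlapped with the length trend removed. The share over ratios of other genes was not computed, and for single genes it was 41.6% of all genes tested. OAZ1 overlaps JSRP1 on the other strand and the protein-coding AC005258.1 on its own strand, ODC1 holds SNORA80B on its own strand, and OAZ2 and AZIN1 overlap genes on the other strand. How the counting treated strand is not given in the sources used here.

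AZIN1 (chromosome 8, 102826357 to 102893864, minus strand) is a relative of ODC1 without its enzyme activity that binds antizyme and so releases ODC1. It had 34.3 and 35.8 FPKM under PBS, against 33.6 and 35.9 FPKM under fluoxetine. The 2 PBS values fell between the 2 fluoxetine values, and the log2 fold change was -0.014 (standard error 0.074, interval -0.18 to 0.15, adjusted p = 0.973 from limma). The level of OAZ1 was between 6.09 and 8.06 times that of AZIN1 over the 4 libraries. The other antizyme and the other inhibitor were near the lower limit of what was tested: OAZ3 had between 0.0981 and 0.491 FPKM and AZIN2 between 0.0914 and 0.164 FPKM.

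**Figure D2:**
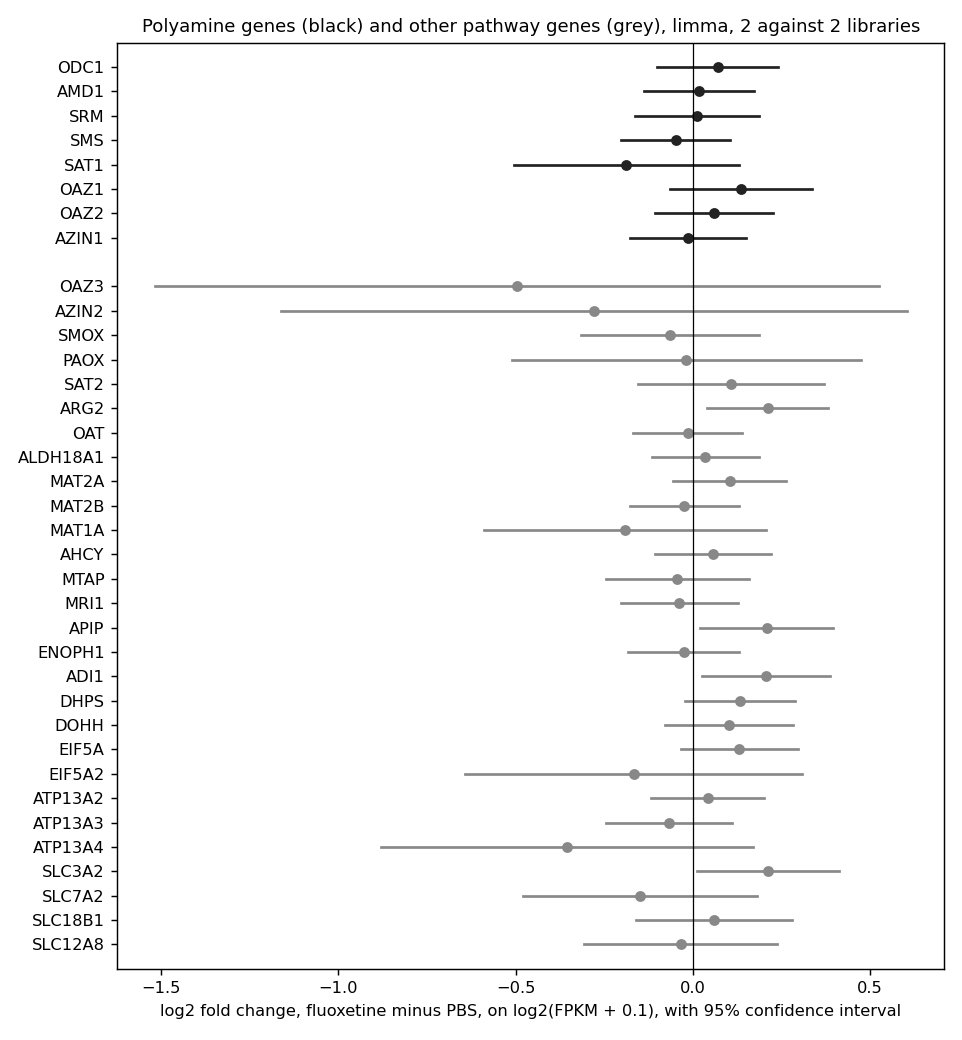
Log2 fold change (horizontal axis, fluoxetine minus PBS, on log2(FPKM + 0.1)) with its 95% confidence interval from limma for the 8 polyamine genes (black) and the 28 other pathway genes tested (grey). The intervals of all 8 polyamine genes include 0, and those of ARG2, APIP, ADI1 and SLC3A2 lie above 0 before adjustment.

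Leaving SAT1 aside, the intervals of the other 7 genes stayed between a change of -13.1% (SMS) and one of 26.2% (OAZ1). A change of 2-fold in either direction lies outside the interval of each of the 8 genes. Like the p-values, these intervals rest on the spread between these libraries, which may be technical, and may not cover the spread between separate cultures.

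The spread between libraries was larger than the counting error for nearly all of these values. ODC1 rested on 17874 to 20294 reads a library, for which counting alone gives an error of 0.731% of the level, while the replicates had an SD of 4.65% of the mean with PBS and 6.24% with fluoxetine. OAZ1 had a counting error of 0.994% and an SD of 12.2% with PBS. For SAT1 the counting error was 5.22%, and the SD 13.9% with PBS and 19.1% with fluoxetine. Only for AMD1 under fluoxetine did the SD (0.251%) fall below the counting error (1.32%). The counting errors cover counting only, and the read numbers are the smallest that give the deposited values.

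**Figure D3:**
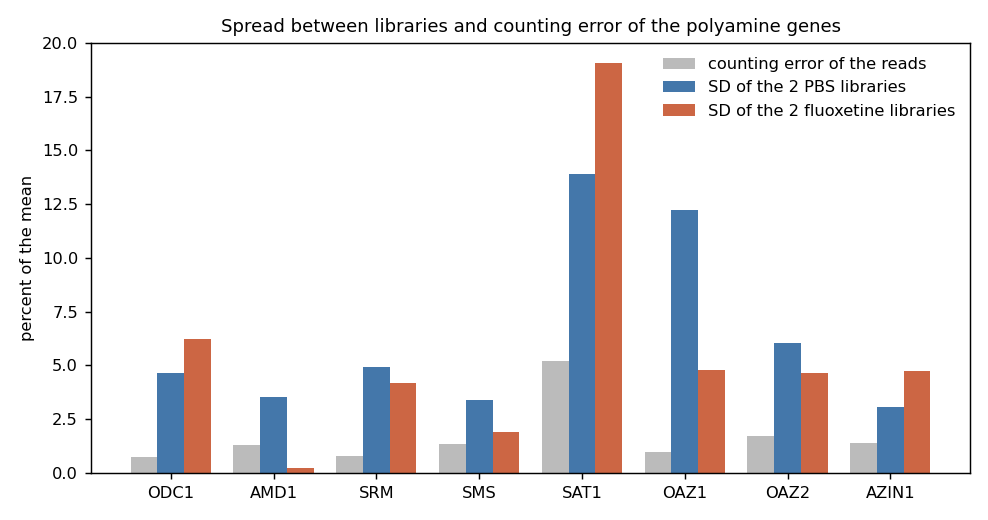
Counting error of the recovered reads (grey) and SD of the 2 PBS (blue) and the 2 fluoxetine libraries (orange), each as a percent of the mean FPKM (vertical axis, from 0), for the 8 polyamine genes. The SD exceeds the counting error in 15 of the 16 gene and group pairs, the exception being AMD1 under fluoxetine, and SAT1 has the largest spread in both groups.

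Of the 8 genes, 4 shared an order of the libraries, or its reverse, that cut across the treatments. ODC1, OAZ1 and OAZ2 all had the order fluoxetine replicate 1, PBS replicate 1, fluoxetine replicate 2, PBS replicate 2 from high to low, and SAT1 had exactly the reverse order. The order puts both replicate 1 libraries above both replicate 2 libraries, and its reverse puts them below. Whether libraries with the same replicate number were handled together is not given in the labels. This order was picked out after its values were seen. It held for 5.02% of all genes tested and its reverse for 6.77%, and for 11.7% and 4.24% of the 2310 genes with a mean of at least 30 FPKM. The order moved with gene length. It was found in 9.34% of the 4197 genes of 184 to 2782 bases and in 1.55% of the 4196 genes of 5206 bases or more. Across genes, the deviation of a library from the gene mean correlated with log2 gene length in fluoxetine replicate 1 (r = -0.28) and PBS replicate 2 (r = 0.19). In PBS replicate 1 (r = 0.055) and fluoxetine replicate 2 (r = 0.046) it did so only weakly. OAZ1 and OAZ2 have lengths of 1181 and 1934 bases, ODC1 of 3015 bases and SAT1 of 2493 bases, so SAT1 is short but has the order more frequent among long genes. After the length trend was removed from each library, ODC1 and SAT1 still had these orders, while OAZ1 and OAZ2 had PBS replicate 1 highest. Over all genes tested, the order then held for 4.79% and its reverse for 5.09%, beside 5.02% and 6.77% before. The spread from lowest to highest library was 43.1% for SAT1, 24.0% for OAZ1, 13.4% for ODC1, 12.4% for OAZ2 and between 5.10% and 7.45% for the other 4 genes.

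**Figure D4:**
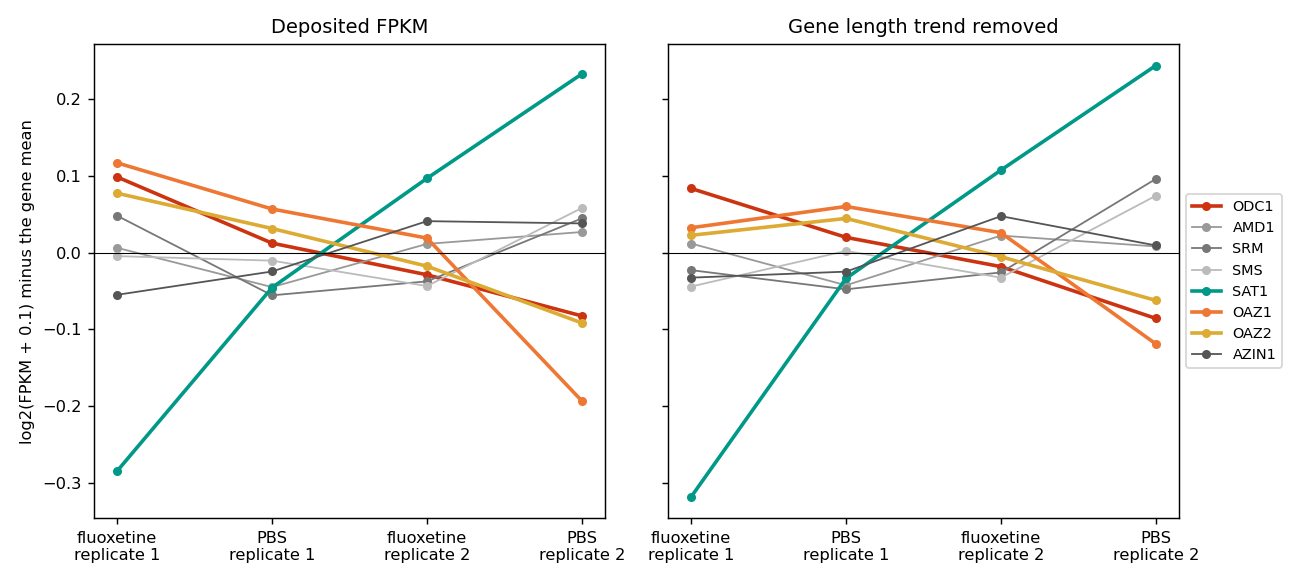
Deviation of log2(FPKM + 0.1) from the mean of each gene (vertical axis) in the 4 libraries (horizontal axis) for the 8 polyamine genes, as deposited (left) and with the trend on gene length taken out of every library (right). Lines only join the values of a gene, and ODC1, OAZ1, OAZ2 and SAT1 are coloured. On the left the lines of ODC1, OAZ1 and OAZ2 slope down and that of SAT1 slopes up in the order drawn, and on the right OAZ1 and OAZ2 peak in PBS replicate 1.

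The genes with the pattern most like ODC1 were CYCS, GLRX3 and SQSTM1. Likeness was the root mean square difference of the centred log2 values over the 4 libraries, among the 5575 other genes with a mean of at least 10 FPKM. These 3 differed from ODC1 by 0.0038, 0.0045 and 0.0049, and OAZ2 came 48th at 0.016. The likeness covers 4 libraries and is a description only. AZIN1, the relative of ODC1, came 3707th.

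Of 35 other genes of the pathway, 33 were listed, 28 had a mean of at least 0.1 FPKM, and 0 of these passed the test with limma or with limma voom. ARG1 and AGMAT were not analysed here. The groups did not overlap for 11 of the 28 genes (39.3%), against the 41.6% of all genes tested. Their median log2 fold change was -0.017, beside -0.021 over all genes. At an unadjusted p under 0.05 there were 4, all with higher values in fluoxetine, where 3.73% of all genes tested had such a p with higher values and 8.51% in either direction. Among the 2310 genes with a mean of at least 30 FPKM, 173 had such a p with higher values and 36 with lower values. Of the 4 genes, SLC3A2 alone reached that level. ARG2, the mitochondrial arginase that yields ornithine for ODC1, had 15.4 and 14.8 FPKM under PBS, against 17.4 and 17.6 FPKM under fluoxetine (log2 fold change 0.21, interval 0.040 to 0.38, adjusted p = 0.525 from limma). SLC3A2, the heavy chain of amino acid transporters that is also linked to polyamine export, had 78.2 and 63.6 FPKM under PBS, against 82.5 and 81.0 FPKM under fluoxetine (0.21, interval 0.012 to 0.41, adjusted p = 0.555 from limma). Without PBS replicate 2 the log2 fold change of SLC3A2 was 0.064.

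APIP and ADI1 are enzymes of the methionine salvage route, which recycles the methylthioadenosine that spermidine and spermine synthesis leave behind. ADI1 had 11.2 FPKM in both PBS libraries and 13.0 FPKM in both fluoxetine libraries, a log2 fold change of 0.21 (interval 0.027 to 0.39, adjusted p = 0.538 from limma). APIP had 13.8 and 13.9 FPKM under PBS, against 17.0 and 15.1 FPKM under fluoxetine, also 0.21 (adjusted p = 0.552 from limma), which was 0.12 without fluoxetine replicate 1. The other 3 enzymes of the route, MTAP, MRI1 and ENOPH1, had log2 fold changes between -0.044 and -0.026, on the other side of 0.

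Spermidine is also used to make hypusine, a modified lysine found in the translation factor EIF5A. EIF5A had 204 ± 8.25 FPKM under PBS, against 224 ± 8.10 FPKM under fluoxetine, and DHPS, the first enzyme of the modification, 45.8 ± 1.20 FPKM and 50.2 ± 1.25 FPKM (SD, n = 2 each). In both genes the 2 fluoxetine libraries were above the 2 PBS libraries, with log2 fold changes of 0.13 and 0.13 that did not pass the test (adjusted p = 0.620 and 0.613 from limma). With quantile normalization the value of EIF5A was 0.063, and with TPM 0.083. DOHH, the second enzyme, overlapped between the groups, as did EIF5A2, a paralog of EIF5A, at -0.17. MAT2A, which makes the S-adenosylmethionine that AMD1 uses, had 183 and 190.0 FPKM under PBS, against 197 and 204 FPKM under fluoxetine (log2 fold change 0.10, adjusted p = 0.673 from limma), and with quantile normalization its value was 0.042.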

How the data were processed

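RNA of LASCPC-01 cells was sequenced by the authors as paired-end reads, in 2 PBS and 2 fluoxetine libraries, and FPKM per gene and library were deposited by the authors. The submitters' processing notes name fastp, HISAT2, HTSeq and GRCh38. Versions and annotation are not given in the sources used here. The methods name DESeq2, which needs counts and was not run here, and a VAHTS kit. The labels give a stranded TruSeq kit instead.

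Groups followed the treatment labels. Genes with a mean under 0.1 FPKM were left out, and log2(FPKM + 0.1) of the other 12663 was compared with limma 3.58.1 (R 4.3.3, moderated with trend, Benjamini-Hochberg adjustment), after a test on simulated data. The simulated libraries were independent, with the same relative spread beyond counting for every gene and no gene length trend. The test therefore did not cover the length trend of these libraries. Read numbers were solved as the smallest whole numbers, within 0.004 reads, that gave the FPKM ratios and whole-base gene lengths. This solved 99.5% of the 16080 genes above 0. The depth was the value shared by 57 genes when exon lengths of GENCODE 29 were used. Replicates had a chi-square of 9.71 (PBS) and 11.0 (fluoxetine) per degree of freedom, so no pair was taken for 1 library. Tables and figures were made in Python 3.11.15. The named genes were the 8 polyamine genes, genes of fixed pathway and marker lists, and the 3 genes most like ODC1. The members and lists were chosen with earlier results of these data known. The results for some marker genes are not reported here.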

Additional observations from a re-analysis of the deposited data

How the results depend on the processing

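Under 17 alternatives, 0 polyamine genes and 0 other pathway genes passed the test, and the lowest adjusted p of a polyamine gene was 0.384 (SAT1 without fluoxetine replicate 2). Of 136 log2 fold changes of the 8 genes, 120 kept their direction, but not all of them could change it. The settings that altered only the filter, the variance model or the replicate block leave each log2 fold change as it was. The length trend with the block likewise repeats the values without it. Rescaling to TPM gave -0.037 for SRM and -0.030 for AMD1, quantile normalization -0.078 for SRM and -0.0033 for ODC1, median centring 0.013 for AZIN1, and removal of the gene length trend -0.048 for SRM and 0.015 for AZIN1, with or without the replicate block. TPM moved the median of all genes by -0.049 and median centring by 0.026, which are shifts of all genes nearly alike. For the other reversals the cause was not tested. The median over the 8 genes was -0.033 with TPM and -0.021 with quantile normalization, beside -0.070 and -0.0026 over all genes. Groups did not overlap for 1 gene with TPM, with quantile normalization and with median centring, and for 2 with the length trend removed, where 39.1% to 42.8% of all genes did not. Those 2 were SMS, lower in fluoxetine, and AMD1, higher in fluoxetine, which both overlapped in the deposited values. Leaving out 1 library, the count of such genes ran from 2 to 6 (66.9% to 75.0% of all genes; the lone library of an arm is assumed to vary like the others), and the median from -0.029 to 0.034. The log2 fold change then ran from -0.039 to 0.061 for SRM, -0.018 to 0.054 for AMD1, -0.0015 to 0.12 for OAZ2, -0.082 to -0.014 for SMS, -0.38 to 0.0031 for SAT1 and -0.062 to 0.034 for AZIN1.

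Over all genes 30 were called, but 0 without the filter on low values or the variance trend, 16 with quantile normalization, 51 with limma voom, 64 with the replicate block and 2 to 12 with 1 library left out. The labels do not say whether libraries with the same replicate number belong together. After subtraction of the group means, such libraries had r = 0.035 across genes, and 0.101 across those with a mean of at least 10 FPKM. A correlation across all genes cannot decide this for single genes. With the replicate block, the log2 fold change of ODC1 was 0.070 (limma adjusted p = 0.736).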
